A study of Mus musculus with 6 samples.

Results

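The 7 genes described here carry the nitric oxide and natriuretic peptide signals that raise cyclic GMP inside cells: the endothelial nitric oxide synthase Nos3, the soluble guanylate cyclase subunits Gucy1a3 and Gucy1b3, the natriuretic peptide receptors Npr1, Npr2 and Npr3, and the phosphodiesterase Pde5a. They were chosen by name for their place in this pathway, and all 7 were found among the 28327 genes of the single-cell tables and among the 49492 genes of the bulk tables. The study profiled glomeruli, the filtering units of the kidney, from male CD1 IGS outbred mice aged 8 weeks. Dissociated glomerular cells fixed in 80% methanol were profiled by Drop-seq, which captures single cells in droplets and counts molecules by unique molecular identifiers (UMIs), in 4 libraries. Dissociated cells that had been fixed in the same way and sorted gave 1 bulk library from 95 ng of RNA, and whole isolated glomeruli gave 1 bulk library from 500 ng. No treatment or mutation was compared, and the labels do not say whether the 4 Drop-seq libraries came from separate mice, so that their spread may be technical.

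Nitric oxide made by the endothelium diffuses into neighbouring cells and binds soluble guanylate cyclase, a heterodimer of an alpha and a beta subunit that makes cyclic GMP. Natriuretic peptides reach the same second messenger by another door: Npr1, the receptor of the atrial and B-type peptides, and Npr2, that of the C-type peptide, carry a guanylate cyclase domain. Npr3 binds all of these peptides and clears them from the fluid around the cell. Pde5a breaks cyclic GMP down and is the target of sildenafil. In the kidney cyclic GMP relaxes smooth muscle and mesangial cells and acts on renin release, and atrial peptide raises filtration.

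The promoters of the genes found mainly in mural-like cells and in podocyte-like cells are shown because these genes fall into those groups by cell type. Each line gives 300 bases, from 250 before to 50 after a RefSeq transcript start on GRCm38.p6, read 5′ to 3′ on the strand of the gene: chr3:82145601-82145900 on the minus strand for Gucy1a3, chr3:82074662-82074961 on the minus strand for Gucy1b3, chr3:122728908-122729207 on the plus strand for Pde5a, chr3:90465817-90466116 on the minus strand for Npr1 and chr15:11907322-11907621 on the minus strand for Npr3. Capitals mark matches, on either strand, to the GC box (GGGCGG), the CCAAT box (CCAAT), the TATA box (TATAAA) or the core of an ETS site (CCGGAA), and no match overlapped another.
Gucy1a3: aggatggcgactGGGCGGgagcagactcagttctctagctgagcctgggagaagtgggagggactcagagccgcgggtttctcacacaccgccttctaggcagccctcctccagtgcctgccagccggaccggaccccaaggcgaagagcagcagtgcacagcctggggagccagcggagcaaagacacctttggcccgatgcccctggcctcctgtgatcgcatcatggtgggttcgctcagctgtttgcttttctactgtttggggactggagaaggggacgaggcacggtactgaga
Gucy1b3: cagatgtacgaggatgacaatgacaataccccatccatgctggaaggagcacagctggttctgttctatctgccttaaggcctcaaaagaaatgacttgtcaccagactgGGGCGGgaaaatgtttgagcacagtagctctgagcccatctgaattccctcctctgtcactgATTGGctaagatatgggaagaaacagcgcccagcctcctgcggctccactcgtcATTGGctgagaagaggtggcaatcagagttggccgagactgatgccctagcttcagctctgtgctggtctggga
Pde5a: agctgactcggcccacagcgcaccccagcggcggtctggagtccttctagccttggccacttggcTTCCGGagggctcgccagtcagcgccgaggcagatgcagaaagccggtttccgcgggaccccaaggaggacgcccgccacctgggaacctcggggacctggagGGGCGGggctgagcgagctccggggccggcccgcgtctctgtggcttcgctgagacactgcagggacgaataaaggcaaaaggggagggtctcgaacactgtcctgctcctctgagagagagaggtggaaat
Npr1: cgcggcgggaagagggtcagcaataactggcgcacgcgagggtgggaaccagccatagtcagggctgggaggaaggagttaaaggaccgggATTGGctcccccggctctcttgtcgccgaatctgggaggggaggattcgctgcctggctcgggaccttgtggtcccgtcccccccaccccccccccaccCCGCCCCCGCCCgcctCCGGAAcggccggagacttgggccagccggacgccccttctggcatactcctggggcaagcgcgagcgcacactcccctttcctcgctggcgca
Npr3: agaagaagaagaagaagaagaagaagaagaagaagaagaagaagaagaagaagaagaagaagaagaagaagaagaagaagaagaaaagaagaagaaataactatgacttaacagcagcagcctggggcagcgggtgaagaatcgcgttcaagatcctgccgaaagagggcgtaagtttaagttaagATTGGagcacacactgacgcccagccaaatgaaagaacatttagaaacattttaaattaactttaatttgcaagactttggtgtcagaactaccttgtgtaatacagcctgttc

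The GC box letters were present in 35.7% of all 32851 RefSeq promoters of this length, those of the CCAAT box in 37.4%, of the TATA box in 13.6% and of the ETS core in 14.9%. Gucy1b3, Pde5a, Npr1 and the Gucy1a3 start shown held the GC box letters. That Gucy1a3 start was chosen because it held a match, and the other Gucy1a3 start held no match to any of these motifs. Gucy1b3, Npr1 and Npr3 held those of the CCAAT box. Npr1 and Pde5a held those of the ETS core, and no window held those of the TATA box. Npr3 stood apart in base composition, with a GC content of 39.0% and a simple repeat at its 5′ end, against 52.3% for Gucy1b3, 62.3% for Gucy1a3, 66.3% for Pde5a and 69.7% for Npr1. Gucy1a3 and Gucy1b3 are neighbours, listed as Gucy1a1 and Gucy1b1 in the annotation: on chromosome 3 of GRCm38 the gene body of Gucy1b3 (chr3:82032006-82074689) and that of Gucy1a3 (chr3:82092427-82145789) lie on the same strand with 17737 bases between them. A match of letters describes the window and is not a binding site.

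The 4 Drop-seq libraries held 3528543 to 6411775 UMIs, and 13993 of 15465 barcodes were kept, with a median of 965 UMIs. Cells were grouped with the 7 genes and their pathway left out, and groups were named from marker genes: 10465 podocyte-like, 1855 endothelial-like, 927 tubular-like, 371 parietal epithelial-like, 319 mural-like and 56 immune-like cells. Levels below are CPM, the UMIs of a gene in a cell type of a library scaled to a total of 1000000, given as mean ± SD over the 4 libraries. Mural-like cells carried markers of smooth muscle and renin cells at 17797 CPM and of mesangial cells at 1108 CPM, so that these cell types were not separated; they made up 0.921% (replicate 2) to 3.65% (replicate 4) of cells. Parietal epithelial-like cells, led by Dkk3 among their markers, carried their own summed markers at 416 ± 167 CPM and those of smooth muscle and renin cells at 703 CPM. Their summed podocyte markers were at 12936 CPM, or 64.2 ± 10.7% of the level in podocyte-like cells. Subclusters that carried markers of another type at 25% or more of that type's level are called mixed: 1 endothelial-like subcluster of 204 cells, mural-like ones of 14 and 32 cells and tubular-like ones of 128 and 14 cells. Parietal epithelial-like cells were not clustered again, so they stay whole where mixed subclusters are left out. In all, 15 barcodes occurred in more than 1 library. The bulk libraries held 24555632 reads on genes for dissociated cells and 28407317 for whole glomeruli.

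**Figure D1:**
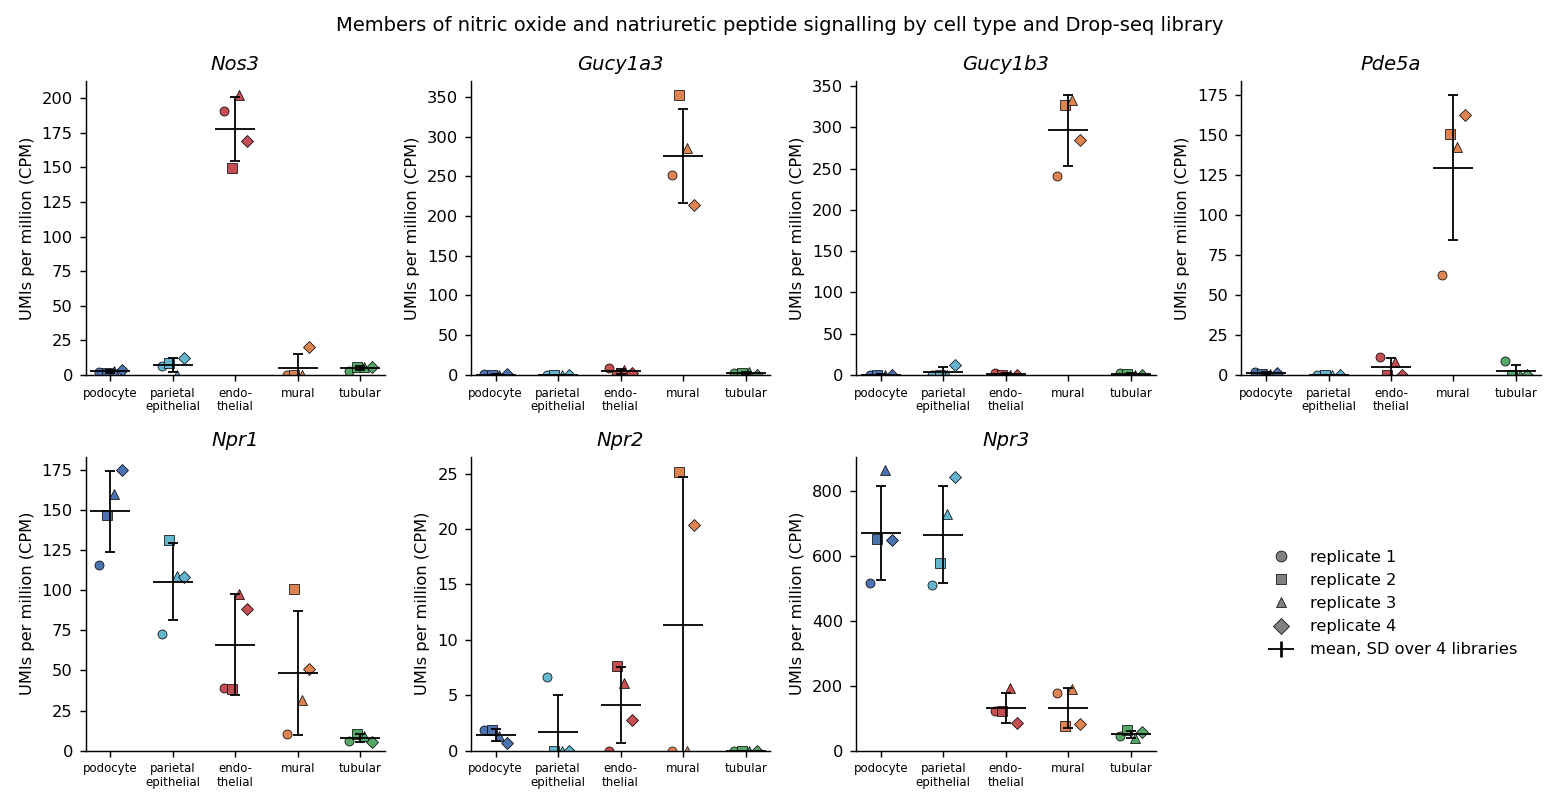
Level of each of the 7 genes in CPM (linear axis) in 5 cell types, with 1 point per Drop-seq library and a bar at the mean with its SD. Nos3 is highest in endothelial-like cells, Gucy1a3, Gucy1b3 and Pde5a in mural-like cells, and Npr1 and Npr3 in podocyte-like and parietal epithelial-like cells.

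The single-cell data split the nitric oxide arm between 2 cell types. Nos3, the enzyme that makes nitric oxide in endothelium, was an endothelial-like transcript: 267 of its 313 UMIs in kept cells, or 85.3% (95% Wilson interval 81.0 to 88.8%), lay in a type that made up 13.3% of cells. In endothelial-like cells its level was 191, 150, 202 and 169 CPM in replicates 1 to 4. The other types held 6.86 ± 5.08 CPM (parietal epithelial-like), 5.08 ± 10.2 CPM (mural-like), 5.02 ± 1.47 CPM (tubular-like) and 2.51 ± 0.913 CPM (podocyte-like; SD, n = 4 each), and no library of another type reached the lowest endothelial-like one. The mural-like level came from replicate 4, with 20.3 CPM, and was 0 once the mixed subclusters were left out. Over the mean of the other types Nos3 was higher by 5.15 on the log2 scale (SE 0.255, adjusted p = 6.68e-44 by edgeR's quasi-likelihood test after Benjamini and Hochberg). That comparison called 28.7% of 7516 genes higher and 19.8% lower. Nos3 passed the low-count filter through its endothelial-like sums, so that a call higher there was close to set by the filter and is a description. Podocyte-like cells were lower by the same test (log2 -2.61, SE 0.608, adjusted p = 0.000136), where 22.7% of genes were called lower and 23.6% higher. Without the mixed subclusters, or without replicate 4, that call was lost (log2 -1.12 and -1.36). The mean of the other types holds the endothelial-like level, so that this call is a description as well. In pairs by the same test, podocyte-like cells were below endothelial-like (log2 -6.21) and tubular-like cells (log2 -1.50, adjusted p = 0.0221). They were not separable from mural-like (adjusted p = 0.462) or parietal epithelial-like cells (0.562). Nos3 had a UMI in 11.3 ± 1.12% of endothelial-like cells and in 0.284 ± 0.0923% of podocyte-like cells, at median depths of 641 and 1016 UMIs. With every cell thinned to 500 UMIs, which left out 378 endothelial-like and 659 podocyte-like cells, these shares were 7.60% and 0.101%. Nos3 overlaps Atg9b, an autophagy gene on the opposite strand, which had 27 UMIs in endothelial-like cells (19.0 ± 5.33 CPM) and none in podocyte-like cells. Without a stated strand setting for the counting, the reads of these genes may not be fully separable.

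Within endothelial-like cells Nos3 was uneven. Subcluster 3, with 139 cells led by Mgp, Fbln5 and Jag1 and with arterial markers at 3290 CPM, had 460, 291, 535 and 123 CPM in replicates 1 to 4. Subcluster 1, with 398 cells led by Tspan8, Slc14a1 and Calca and with arterial markers at 1869 CPM, had 342, 203, 342 and 246 CPM. Subcluster 2, the 1114 cells with glomerular capillary markers at 6875 CPM (the summed level of genes such as Ehd3 and Emcn), had 170, 133, 174 and 187 CPM. The lists were not exclusive: capillary markers were at 2161 CPM in subcluster 1 and 695 CPM in subcluster 3, and arterial markers at 804 CPM in subcluster 2. For Nos3, each library of subcluster 1 was above every library of subcluster 2. Subcluster 3 overlapped the range of subcluster 1 through replicate 2 and reached below both through replicate 4. The mixed subcluster 0, in which podocyte markers reached 71.8% of the podocyte-like level, had 75.3, 94.8, 31.2 and 0 CPM.

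Over the mean of the other subclusters, Nos3 was higher in subcluster 3 (log2 1.24, SE 0.344, adjusted p = 0.00669) and in subcluster 1 (log2 0.98, SE 0.265, adjusted p = 0.00489), did not pass in subcluster 2 (log2 -0.05, adjusted p = 0.913) and was lower in subcluster 0 (log2 -2.16, SE 0.368, adjusted p = 1.9e-06), all by edgeR's quasi-likelihood test over 1836 genes. These comparisons called 16.3% of genes for subcluster 3, 18.8% for subcluster 1, 30.7% for subcluster 2 and 44.0% for subcluster 0 in either direction. When the mixed subcluster was left out, the capillary-marked subcluster 2 was lower than the mean of the other remaining ones (log2 -0.90, SE 0.230, adjusted p = 0.00301, where 24.7% of 1572 genes were called), and subclusters 1 and 3 no longer passed (log2 0.27 with adjusted p = 0.535 where 12.2% were called, and 0.63 with adjusted p = 0.167 where 17.4% were called). Without replicate 3 the calls of subclusters 1 and 3 were also lost (log2 0.88 with adjusted p = 0.0581, and 0.85 with adjusted p = 0.173), and with no low-count filter that of subcluster 3 was lost (log2 0.88, adjusted p = 0.229).

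**Figure D2:**
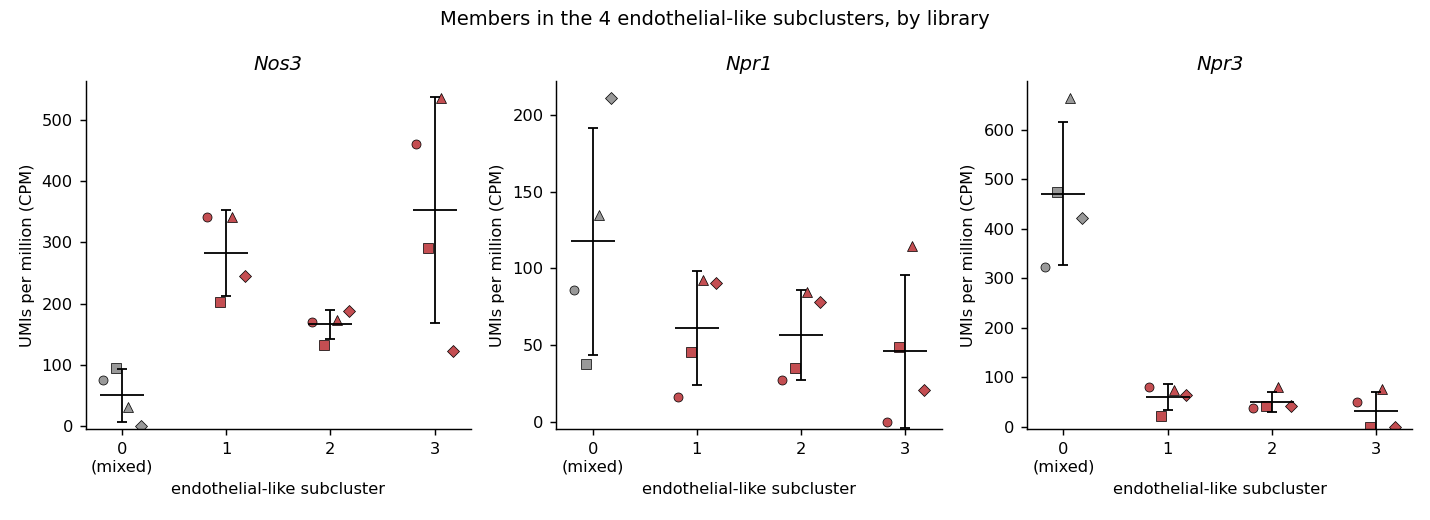
Level of Nos3, Npr1 and Npr3 in CPM in the 4 endothelial-like subclusters, with 1 point per Drop-seq library and a bar at the mean; the mixed subcluster 0 is grey. Nos3 averaged 283 CPM in subcluster 1 and 166 CPM in subcluster 2, and Npr3 averaged 471 CPM in the mixed subcluster and at most 60.7 CPM elsewhere.

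The subunits of soluble guanylate cyclase, which nitric oxide activates, were mural-like transcripts. Of the 93 UMIs of each soluble guanylate cyclase subunit, 77 of Gucy1a3 (82.8%, 95% Wilson interval 73.9 to 89.1%) and 85 of Gucy1b3 (91.4%, 83.9 to 95.6%) lay in a cell type that made up 2.28% of cells. Gucy1a3, the alpha subunit, had 251, 352, 285 and 214 CPM in mural-like cells of replicates 1 to 4. Elsewhere it was at 4.33 ± 3.71 CPM (endothelial-like), 1.93 ± 1.38 CPM (tubular-like) and 0.410 ± 0.50 CPM (podocyte-like), and had no UMI in parietal epithelial-like cells (SD, n = 4 each). Every mural-like library was above every library of the other types. Gucy1b3, the beta subunit, had 241, 327, 333 and 285 CPM in mural-like cells, against 3.01 ± 6.02 CPM (parietal epithelial-like), 0.944 ± 1.34 CPM (tubular-like), 0.702 ± 1.40 CPM (endothelial-like) and 0.302 ± 0.212 CPM (podocyte-like). Pooled over libraries, the endothelial-like value rested on 1 UMI, or 0.682 CPM with an exact Poisson interval of 0.0173 to 3.80 CPM for counting error only. In mural-like cells the means were 276 ± 59.0 CPM for Gucy1a3 and 296 ± 42.8 CPM for Gucy1b3 (SD, n = 4 each), and no mural-like library overlapped a library of another type for either subunit.

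By edgeR's quasi-likelihood test Gucy1b3 was higher in mural-like cells than in the mean of the other types by 8.01 on the log2 scale (SE 0.43, adjusted p = 1.4e-39). Gucy1a3 was called higher too, in a comparison that called 12.3% of genes higher and 9.97% lower. Both subunits passed the low-count filter through their mural-like sums, since no other type held more than 7 UMIs of either. A call higher in mural-like cells, here and in the pairs below, was thus close to set by the filter and is a description. Gucy1a3 was at least 38.0-fold higher in mural-like cells (259.5 CPM pooled) than in parietal epithelial-like cells, whose 0 UMIs allow up to 6.82 CPM (3 UMIs over the 4 libraries). Over endothelial-like cells, which carried Nos3, Gucy1a3 was higher by 5.60 (SE 0.495, adjusted p = 4.26e-20) and Gucy1b3 by 8.30 (SE 0.636, adjusted p = 8.39e-25), where 25.6% of genes differed. Over parietal epithelial-like cells Gucy1b3 was higher by 6.87 (SE 0.724, adjusted p = 2.67e-15), where 20.3% differed. Podocyte-like cells were called lower for Gucy1b3 (log2 -3.51, SE 1.04, adjusted p = 0.00297 by edgeR). That call was lost without replicate 1, without replicate 4 or with at least 500 genes per cell (log2 -2.83, -2.39 and -2.65). The mean of the other types holds the mural-like level, so that this call is a description too. In pairs by edgeR, podocyte-like cells were not separable from endothelial-like (adjusted p = 0.618), parietal epithelial-like (0.593) or tubular-like cells (0.279).

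Pde5a, which ends the cyclic GMP signal, was also led by mural-like cells. Its mural-like level was 62.8, 151, 143 and 163 CPM in replicates 1 to 4, with 37 of its 61 UMIs (60.7%, 95% Wilson interval 48.1 to 71.9%). Elsewhere it was at 4.85 ± 5.74 CPM (endothelial-like), 2.13 ± 4.26 CPM (tubular-like) and 1.0 ± 0.621 CPM (podocyte-like), and had no UMI in parietal epithelial-like cells (SD, n = 4 each). Mural-like libraries did not overlap those of any other type, although replicate 1 was lower than the other mural-like libraries. Pde5a was called higher in mural-like cells. Its pooled level there, 124.7 CPM (95% Poisson interval 87.8 to 172), was 18.3-fold above the parietal epithelial-like floor of 6.82 CPM. Pde5a was higher in mural-like than in endothelial-like cells by 4.34 on the log2 scale (SE 0.606, adjusted p = 1.87e-09 by edgeR). Pde5a too passed the low-count filter through its mural-like sums, so that these calls are a description.

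Single mural-like cells rarely showed more than 1 of these genes. A UMI was seen in 18 ± 4.30% of mural-like cells for Gucy1a3, 19.6 ± 3.52% for Gucy1b3 and 9.72 ± 3.66% for Pde5a, and thinned to 500 UMIs, with 45 cells left out, in 9.78%, 14.2% and 5.98%. In podocyte-like cells the unthinned shares were 0.0488%, 0.0371% and 0.118%. Of 319 mural-like cells, 54 had a UMI of Gucy1a3, 59 of Gucy1b3 and 13 of both subunits. At a median depth of 777 UMIs a cell without a UMI cannot be read as lacking the transcript. Pde5a had a UMI in 28 cells, of which 11 also had Gucy1b3 and 4 also had Gucy1a3.

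The mural-like subclusters with many cells differed in renin and in mesangial markers. Subcluster 1, with 154 cells, had renin markers at 10426 CPM and smooth muscle markers at 12545 CPM. Subcluster 3, with 119 cells, had them at 2494 and 11952 CPM. Mesangial markers were at 1706 CPM in subcluster 1 and 405 CPM in subcluster 3. Which of these marker differences Gucy1a3 goes with was not tested. Gucy1a3 was at 347, 630, 458 and 238 CPM in replicates 1 to 4 of subcluster 1, against 189, 187, 130 and 167 CPM in subcluster 3. All libraries of subcluster 1 lay above those of subcluster 3, by 250.02 ± 167 CPM (SD, n = 4 pairs), but the exact two-sided permutation p was 0.125, the smallest that 4 pairs allow, and the gene did not pass the filter for the fit. Gucy1b3 was at 322 ± 20.6 CPM in subcluster 1 and 367 ± 100 CPM in subcluster 3, a mean difference of -45.0 CPM with subcluster 1 higher in 1 of 4 libraries. It did not pass the test, where the fitted difference, subcluster 1 over subcluster 3, had the other sign (log2 0.07, SE 0.41; edgeR, adjusted p = 0.945, where 18% of 604 genes were called). Pde5a was at 185 ± 122 and 119 ± 104 CPM (SD, n = 4; exact permutation p = 0.75).

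The natriuretic peptide arm centred on the epithelium of the glomerulus. Npr3, the clearance receptor, had 9042 UMIs in kept cells, of which 8388 (92.8%) lay in podocyte-like cells; these made up 74.8% of cells. Its level was 516, 652, 864 and 650 CPM in podocyte-like cells of replicates 1 to 4. Parietal epithelial-like cells had 511, 578, 730 and 843 CPM, so that the types overlapped. The remaining types held 131 ± 45.4 CPM (endothelial-like), 131 ± 61.2 CPM (mural-like) and 50.8 ± 10.5 CPM (tubular-like; SD, n = 4 each), and none of their libraries reached the podocyte-like or parietal epithelial-like ones. Going down the mean levels, podocyte-like cells were not separable from parietal epithelial-like cells (log2 0.09, 95% interval -0.159 to 0.339, adjusted p = 0.813, where 7.05% of genes differed). Parietal epithelial-like cells were above endothelial-like cells (log2 2.15, adjusted p = 1.32e-22, where 34.6% differed). Endothelial-like and mural-like cells, with means of 130.9 and 131.2 CPM, were not separable; the fitted difference, endothelial-like over mural-like, had the other sign (log2 0.11, interval -0.439 to 0.662, adjusted p = 0.835). Mural-like cells were above tubular-like cells (log2 0.89, adjusted p = 0.0167, where 39.1% differed), all by edgeR's quasi-likelihood test. Without replicate 1, without replicate 3 or with no low-count filter this last call was lost (log2 0.58, 0.71 and 0.76). With no low-count filter podocyte-like cells were above parietal epithelial-like ones (log2 0.56, adjusted p = 0.00081).

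Against the mean of the other types, Npr3 was higher by 1.98 in podocyte-like cells (SE 0.0943, adjusted p = 1e-40) and by 1.87 in parietal epithelial-like cells (SE 0.142, adjusted p = 4.72e-23), where 10% of genes were called higher and 5.63% lower. It was lower in tubular-like cells (log2 -2.07, SE 0.17, adjusted p = 6.22e-22), where 24.8% were called lower and 29.1% higher, in mural-like cells (log2 -0.96, SE 0.239, adjusted p = 0.000923) and in endothelial-like cells (log2 -0.82, SE 0.15, adjusted p = 1.28e-06). The mural-like call was lost without the mixed subclusters (log2 -0.71), under a clustering resolution of 1.5 (log2 -0.56) or with the pathway left in the clustering (log2 -0.35). The endothelial-like call was lost with at least 500 genes per cell (log2 -0.36), and the parietal epithelial-like call against all other cells summed (log2 0.19). The tubular-like call was lost with a mitochondrial limit of 10% in place of 20% (log2 -0.14, adjusted p = 0.726 by edgeR). At that limit no parietal epithelial-like type was left, so the mean of the other types was not the same. Other alternatives lacked this type as well: 12 gave it a result, where podocyte-like cells had 15. A UMI of Npr3 was seen in 45.1 ± 8.29% of cells of the podocyte-like type, 44.8 ± 9.87% of the parietal epithelial-like type and 7.76 ± 2.61% of the tubular-like type; thinned to 500 UMIs the shares were 26.1%, 24.3% and 3.12%.

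Npr1, the guanylate cyclase receptor for atrial peptide, had 2071 UMIs, of which 1891 (91.3%) were podocyte-like. Podocyte-like cells had 116, 147, 160 and 175 CPM in replicates 1 to 4, and parietal epithelial-like ones 73.1, 131, 109 and 108 CPM. Endothelial-like cells had 39.3, 38.4, 98.0 and 88.7 CPM, mural-like ones 10.5, 101, 31.7 and 50.8 CPM and tubular-like ones 5.67, 10.3, 9.07 and 5.58 CPM. Podocyte-like libraries lay above all endothelial-like and mural-like ones, overlapped the parietal epithelial-like ones, and tubular-like libraries lay below all others. Neighbours in the order did not pass until tubular-like cells: podocyte-like over parietal epithelial-like was 0.56 (interval 0.0959 to 1.02, adjusted p = 0.171), parietal epithelial-like over endothelial-like 0.47 (-0.108 to 1.04, adjusted p = 0.221), endothelial-like over mural-like 0.92 (0.0599 to 1.78, adjusted p = 0.116) and mural-like over tubular-like 1.80 (adjusted p = 0.0115), on the log2 scale by edgeR. The last call was lost without replicate 2, without replicate 4 or with no low-count filter (log2 1.86, 1.54 and 1.67). Endothelial-like over mural-like passed without replicate 2 (log2 1.41, adjusted p = 0.0249), and podocyte-like over parietal epithelial-like passed with no low-count filter (log2 1.03, adjusted p = 0.000404). Above tubular-like cells, pairs further apart in the order did pass by edgeR with all libraries. Podocyte-like cells were above endothelial-like cells (log2 1.03, adjusted p = 7.34e-08) and mural-like cells (log2 1.94, adjusted p = 2.61e-06). Parietal epithelial-like cells were above mural-like cells (log2 1.39, adjusted p = 0.0209).

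Over the mean of the other types, Npr1 was higher in podocyte-like cells (log2 1.82, SE 0.15, adjusted p = 7.49e-23) and in parietal epithelial-like cells (log2 1.12, SE 0.293, adjusted p = 0.00224) and lower in tubular-like cells (log2 -2.87, SE 0.333, adjusted p = 4.69e-14). With a mitochondrial limit of 10% the tubular-like call was lost (log2 -1.12, adjusted p = 0.0692 by edgeR). The mean of the other types then held no parietal epithelial-like type. Against all other cells summed the parietal epithelial-like difference turned to -0.33 (adjusted p = 0.626). In endothelial-like cells it passed narrowly (log2 0.54, SE 0.225, adjusted p = 0.0390, higher in 3 of 4 libraries), and against all other cells summed, most of which were podocyte-like, it was lower there (log2 -0.87, adjusted p = 4.14e-05). The call was lost under 8 of the 15 alternatives. It did not pass in mural-like cells (log2 -0.61, adjusted p = 0.356), but was called lower there against all other cells summed (log2 -1.79, adjusted p = 0.000106).

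Transcripts of podocytes were also counted in other cell types, so the receptors were set beside the 8 summed podocyte markers. All 8 were detected in endothelial-like cells, at 3294 to 4632 CPM in sum, against 18105 to 21361 CPM in podocyte-like cells. Values are given as a percentage of the podocyte-like level in the same library. Npr3 moved with the markers: it was at 19.5 ± 4.61% in endothelial-like cells, against 20.4 ± 4.16% for the markers, and at 7.89 ± 2.28% in tubular-like cells, against 7.97 ± 1.91%. Without the mixed subclusters both were lower in endothelial-like cells (7.53 ± 2.15% for Npr3 and 7.86 ± 0.960% for the markers), and 137 of the 201 Npr3 UMIs of endothelial-like cells lay in the mixed subcluster at 471 ± 144 CPM, against 50.8 to 60.7 CPM in subclusters 1 and 2. Npr1 was above the markers in endothelial-like cells of all 4 libraries: at 34.0, 26.2, 61.3 and 50.7%, against 25.6, 18.7, 21.5 and 15.8% for the markers. The difference averaged 22.7 ± 17.1 percentage points (SD, n = 4; exact two-sided permutation p = 0.125, the smallest that 4 libraries allow). Without the mixed subclusters Npr1 was at 35.7 ± 16%, against 7.86 ± 0.960% for the markers, again above in 4 of 4 libraries. In mural-like cells Npr3 was at 20.1 ± 10.7% and Npr1 at 31.6 ± 26.0%, against 13.5 ± 5.88% for the markers, each above in 3 of 4 libraries. What part of a receptor's level in these cell types came with podocyte RNA was not tested. In parietal epithelial-like cells, whose podocyte markers were at 64.2%, Npr3 was at 100.5 ± 20.5% and Npr1 at 70.7 ± 12.8% of the podocyte-like level.

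**Figure D3:**
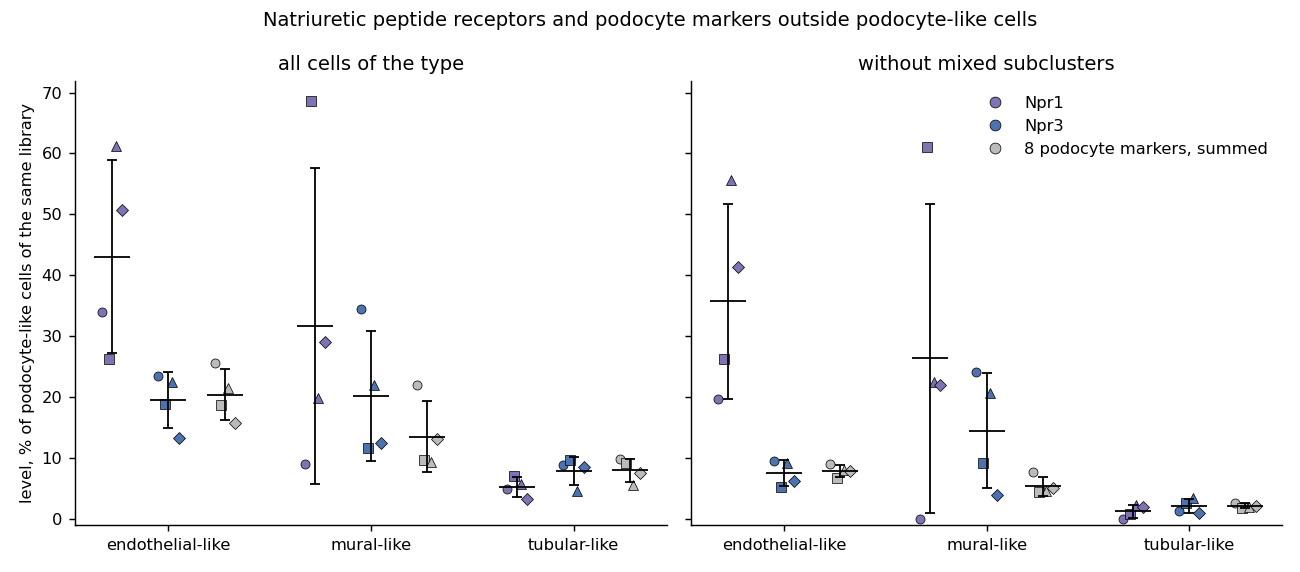
Level of Npr1, Npr3 and the 8 summed podocyte markers as a percentage of the podocyte-like level in the same library, with 1 point per Drop-seq library, with and without mixed subclusters. In endothelial-like cells Npr1 averaged 43.1% and Npr3 19.5%, against 20.4% for the markers.

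Npr2, the receptor of C-type natriuretic peptide, was hardly detected in Drop-seq, though bulk libraries held more of it, as given below. Kept cells had 29 UMIs: 19 podocyte-like, 6 endothelial-like, 3 mural-like, 1 parietal epithelial-like and none tubular-like. Mural-like cells had 11.4 ± 13.3 CPM (0, 25.2, 0 and 20.3 CPM in replicates 1 to 4), endothelial-like cells 4.14 ± 3.44 and podocyte-like cells 1.42 ± 0.556 CPM, and the groups overlapped. It did not pass the low-count filter, so that the counts of calls cover 6 of the 7 genes. Of these 6, mural-like cells had 3 higher and 1 lower, where 12.3% of all genes were called higher and 9.97% lower. Podocyte-like cells had 2 higher and 2 lower, where 23.6% were called higher and 22.7% lower, and endothelial-like cells 2 higher and 1 lower, where the shares were 28.7% and 19.8%. Parietal epithelial-like cells had 2 higher and none lower, beside 10% and 5.63% of all genes, and tubular-like cells none higher and 2 lower, beside 29.1% and 24.8%. With 6 genes, of which Gucy1a3, Gucy1b3 and Pde5a had at most 13 UMIs in any type other than mural-like cells, these counts are a description.

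The genes with the most similar pattern over the 20 sums of cell type and library, which share libraries and depth, were taken by Pearson's r of log2(CPM + 10). For Nos3 they were Gimap8 (r = 0.979), Irf8 (0.974) and Ssu2 (0.972). For Npr3 they were Plagl1 (0.979), the podocyte marker Ptpro (0.962) and Golim4 (0.961). For Npr1 they were the immediate-early genes Ier2 (0.932) and Fosb (0.913) and the tight junction gene Tjp1 (0.909). Ranked by Spearman's rho instead, 1 of the 3 was again among the top 3 for Npr1 (Ier2) and none for Nos3 or Npr3.

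Around the 7 genes, a list of 66 pathway genes covered enzymes, cofactors, kinases, phosphodiesterases and peptide proteases; 59 had a row in the Drop-seq tables and 33 passed the filter. In mural-like cells 14 of the 33 were higher and 4 lower, where 12.3% of all genes were called higher and 9.97% lower. Those named by the rule were effectors and regulators of cyclic nucleotide signals. Rgs2, a G-protein regulator that cyclic GMP-dependent kinase acts on, was at 553 ± 113 CPM (log2 3.97, SE 0.208, adjusted p = 9.1e-41), and Ppp1r12a, the targeting subunit of myosin phosphatase, at 857 ± 237 CPM (log2 2.87, SE 0.158, adjusted p = 1e-35). Pde3a, a phosphodiesterase that cyclic GMP inhibits, was at 573 ± 176 CPM (log2 2.89, SE 0.186, adjusted p = 8.74e-32). Cav1, the caveolar protein that holds Nos3 inactive, was higher here (185 ± 72 CPM, log2 2.61) and in endothelial-like cells. The cyclic GMP-dependent kinase Prkg2 (208 ± 64.9 CPM) and Mrvi1, a substrate of the related kinase Prkg1 (130 ± 35.2 CPM), were called higher. Both had no UMI in endothelial-like or parietal epithelial-like cells and passed the filter through their mural-like sums, so that these calls are a description.

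In endothelial-like cells 12 of the 33 were higher and 8 lower, which is not far from the 28.7% and 19.8% of all genes called there. Ddah2, which removes an inhibitor of nitric oxide synthases, was at 422 ± 43.7 CPM there, against 9.80 ± 1.64 CPM in podocyte-like cells (log2 over the mean of the other types 3.64, SE 0.141, adjusted p = 1.54e-56). Gch1, which starts synthesis of the cofactor tetrahydrobiopterin, was at 141 ± 20.9 CPM and Nostrin, which moves Nos3 inside the cell, at 159 ± 28.3 CPM, both with no UMI in parietal epithelial-like cells. Dynll1, a dynein light chain (log2 1.32, SE 0.0801), and Cav1 (log2 2.74, SE 0.194) were also higher.

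In podocyte-like cells 10 of the 33 were higher and 12 lower, where 23.6% of all genes were called higher and 22.7% lower. Mme, the protease neprilysin that degrades natriuretic peptides, was at 213 ± 28.7 CPM (log2 1.48, SE 0.136, adjusted p = 1.21e-19), beside its parietal epithelial-like level of 254 ± 46.5 CPM (log2 1.70, SE 0.216, adjusted p = 3.11e-11). The cytochrome b5 reductase Cyb5r3 (log2 0.97) and Calm2 (log2 0.97) were higher, and Cav1 (log2 -6.00), Rgs2 (log2 -3.34) and Ddah2 (log2 -3.20) lower. In parietal epithelial-like cells 2 were higher, Mme and Pde3a (log2 1.08), and 4 lower, among them Rgs2 (log2 -2.38), Ddah2 (log2 -1.08) and Ppp1r12a (log2 -0.90), beside 10% of all genes called higher and 5.63% lower. In tubular-like cells 10 were higher and 9 lower, near the 29.1% and 24.8% of all genes called. The rule named Pde1a (log2 3.94) and Pts (log2 1.72) as higher and Pde3a (log2 -3.46), Cyb5r3 (log2 -1.77), Dynll1 (log2 -1.27) and Calm2 (log2 -0.91) as lower. By type, the median over the 33 was 0.44 (mural-like), -0.14 (endothelial-like), -0.17 (tubular-like), -0.21 (parietal epithelial-like) and -0.44 (podocyte-like), and that of all genes lay between -0.12 (mural-like) and 0.04 (endothelial-like).

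**Figure D4:**
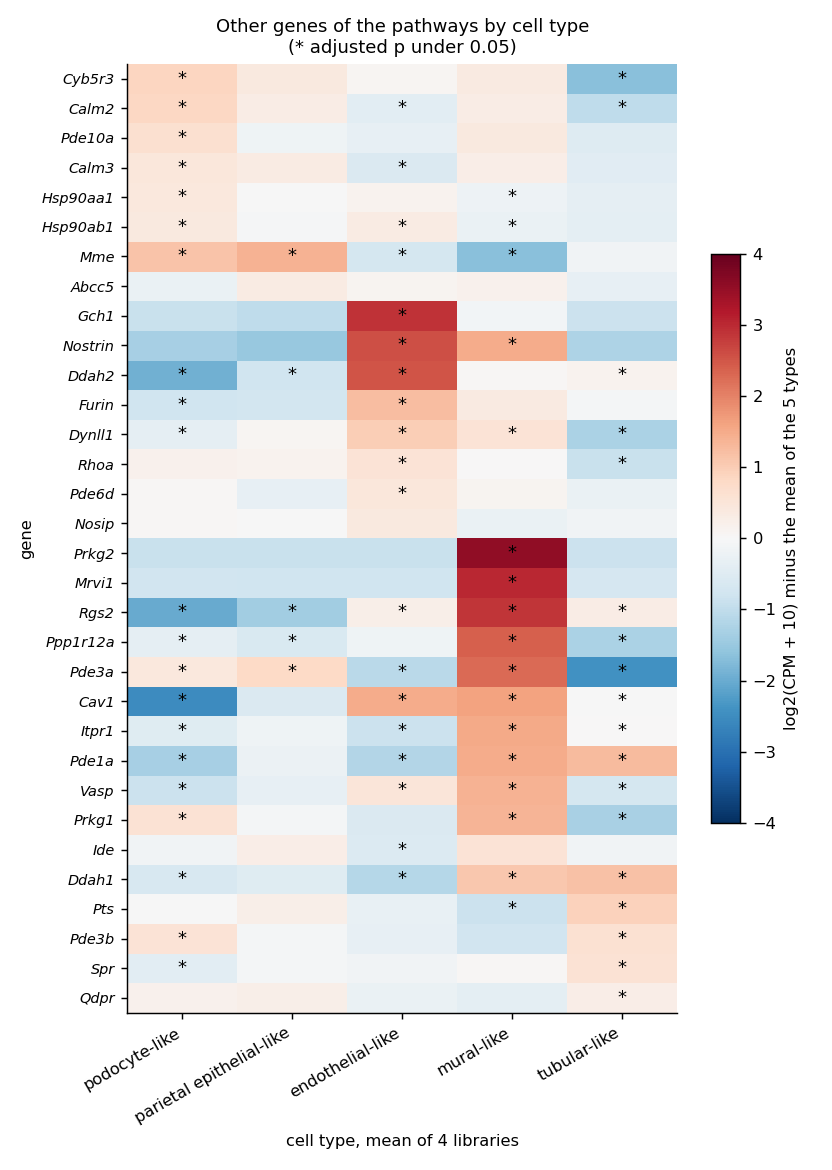
Colour gives log2(CPM + 10) minus the mean over the 5 cell types (columns, mean of 4 libraries) for 32 of the 33 pathway genes that passed the filter (rows); a star marks an adjusted p under 0.05 in the fit of that type against the mean of the other types. The Ddah2 row is red in endothelial-like cells (422 CPM) and blue in podocyte-like cells (9.80 CPM).

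Bulk sequencing then allowed the dissociated cells to be set against whole glomeruli, with 1 library each, so that these differences have no replicate check and no test. The genes led by mural-like cells were at a few percent of their whole-glomerulus level in dissociated cells. Gucy1a3 had 136 reads in dissociated cells and 8816 in whole glomeruli, or 6.18 CPM (95% Poisson interval 5.19 to 7.31) against 278 CPM (272 to 284), a log2 ratio of -5.47. Gucy1b3 had 140 reads in dissociated cells and 4976 in whole glomeruli (6.36 against 157 CPM, log2 -4.61). Pde5a had 114 reads in dissociated cells and 3338 in whole glomeruli (5.18 against 105 CPM, log2 -4.33). All 3 lay past 16-fold lower, where 2.43% of 12692 genes compared lay, and at percentiles 0.985, 1.72 and 2.01 of all log2 ratios. Npr2 was lower as well, with 279 reads in dissociated cells and 1385 in whole glomeruli (12.7 against 43.7 CPM, log2 -1.78).

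The other 3 genes were within 2-fold. Nos3 had 1501 reads in dissociated cells and 1730 in whole glomeruli (68.2 against 54.6 CPM, log2 0.32), Npr1 15937 and 15550 (724 against 491 CPM, log2 0.56), and Npr3 16983 and 15227 (772 against 480 CPM, log2 0.68). Thus 4 of the 7 were past 2-fold lower and none past 2-fold higher, where 18.9% of all genes were past 2-fold lower and 10.8% past 2-fold higher. Relative to whole glomeruli, dissociated cells held 2.25% of Gucy1a3, 4.10% of Gucy1b3, 4.99% of Pde5a, 29.1% of Npr2, 125% of Nos3, 148% of Npr1 and 161% of Npr3. In such bulk values fewer cells of a type and less RNA per cell cannot be told apart.

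Per length of the gene, Npr1 was at 151 RPKM (CPM per kilobase of gene model) in dissociated cells and 103 in whole glomeruli, Npr3 at 82.2 and 51.2, and Nos3 at 16.5 and 13.2. Gucy1a3 and Gucy1b3 were at 0.887 and 1.62 RPKM in dissociated cells, against 39.9 and 40.0 RPKM in whole glomeruli, where the 2 subunits were thus level with each other. Pde5a was at 0.527 RPKM in dissociated cells and 10.7 in whole glomeruli, and Npr2 at 2.72 and 9.36.

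Marker lists moved beside these genes. All 5 mesangial markers were past 2-fold lower in dissociated cells (median log2 -6.44, range -6.90 to -2.77), among them the mesangial integrin Itga8, with 298 reads in dissociated cells and 37513 in whole glomeruli. The 4 smooth muscle and renin markers compared lay between -0.18 and 0.16. Podocyte markers had a median of 1.09 (5 of 8 past 2-fold higher), beside 0.56 and 0.68 for Npr1 and Npr3. Endothelial markers had a median of -1.64 (7 of 9 past 2-fold lower, range -3.02 to -0.32), whereas Nos3, which had the endothelial-like pattern in single cells, was at 0.32, above the whole range of that list. What part mesangial cells have in the bulk values of Gucy1a3, Gucy1b3 and Pde5a was not tested. Scaled to the summed podocyte markers instead, Nos3, Npr1 and Npr3 turned to the lower side, at -0.62, -0.37 and -0.25, and Gucy1a3 was at -6.41. Scaled by library totals alone, Nos3 was at 0.00535, Npr1 at 0.25 and Npr3 at 0.37.

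**Figure D5:**
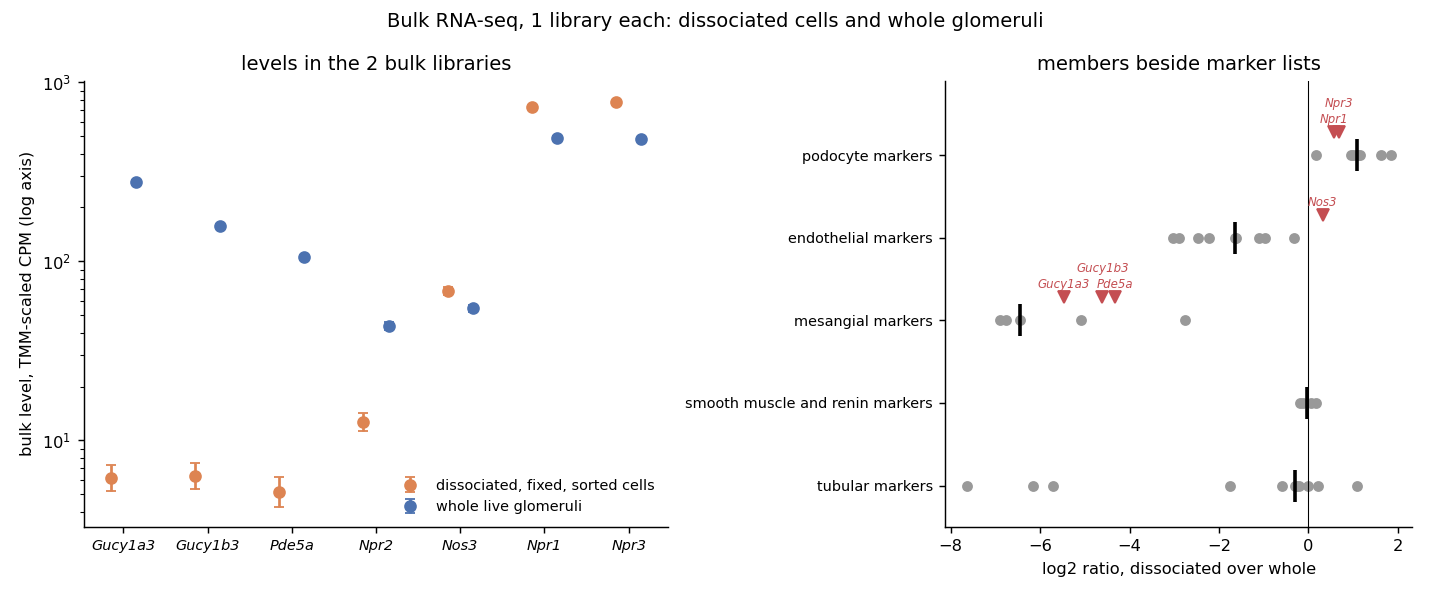
Left, bulk level of the 7 genes in CPM (log axis) in dissociated cells and whole glomeruli, with 1 library each. Right, log2 ratio of dissociated cells over whole glomeruli for these genes except Npr2 (triangles). Beside them are podocyte, endothelial, mesangial, smooth muscle and renin, and tubular marker genes (grey dots, black tick at the median). Gucy1a3, Gucy1b3 and Pde5a lie at -5.47, -4.61 and -4.33, where the mesangial markers have a median of -6.44.

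In the 46 pathway genes compared in bulk, 16 were past 2-fold lower, where 18.9% of all genes were, and 4 past 2-fold higher, near the 10.8% of all genes (median log2 -0.32, with -0.0045 over all genes). Mrvi1, which was mural-like in single cells, had 145 reads in dissociated cells and 3348 in whole glomeruli (log2 -3.99). Another alpha subunit, Gucy1a2, had 13 and 260 reads (log2 -3.64), the inducible synthase Nos2 42 and 479 (log2 -2.94), and Agxt2 0 and 131. Higher in dissociated cells were the chaperone Hsp90aa1 (log2 2.08), Calm2 (log2 1.42), Mme with 9465 and 6071 reads (log2 1.17) and Nos1ap with 357 and 229 (log2 1.16).

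Summed over all barcodes, the Drop-seq libraries gave Gucy1a3 at 5.87 ± 2.22, Gucy1b3 at 5.93 ± 2.21 and Pde5a at 3.61 ± 1.49 CPM (SD, n = 4 each). The bulk library of dissociated cells had 5.54, 5.70 and 4.64 CPM of library total, and that of whole glomeruli 310, 175 and 118 CPM. Npr3 was at 503 ± 84.9 CPM in Drop-seq, 692 in bulk dissociated cells and 536 in whole glomeruli. Npr1 was at 115 ± 20, 649 and 547 CPM, Nos3 at 19.4 ± 9.92, 61.1 and 60.9 CPM, and Npr2 at 1.59 ± 0.281, 11.4 and 48.8 CPM. The Drop-seq means of Npr1, Nos3, Npr2 and Npr3 lay below both bulk libraries, although replicate 3 had Npr3 at 619 CPM. Drop-seq counts transcripts by their ends, and the tables were made separately, so that these levels stand side by side without a test.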

How the data were processed

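Drop-seq of methanol-fixed dissociated glomerular cells gave 4 libraries, and bulk sequencing gave 1 library of sorted dissociated cells and 1 of whole glomeruli. The authors deposited whole-number counts in all tables: counts of UMIs per gene and barcode for Drop-seq, per the labels' protocols, and counts of reads per gene for bulk. STAR and HTSeq are named in the submitters' processing notes, and the bulk kit is strand-specific per the labels' protocols. Versions, genome build, annotation and strand setting are not given in the sources used here. Bulk reads assigned to no feature were 6.14% of all in dissociated cells and 9.68% in whole glomeruli, and these and other rows that name no gene were left out.

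A barcode was kept if it had 300 genes or more and no more than 20% of its UMIs from mitochondrial genes. Cells were clustered with scanpy 1.11.5 (2000 variable genes, 30 components, 15 neighbours, Leiden resolution 1.0), with the 7 genes and the pathway list left out of the variable genes. Clusters were named from fixed marker lists; intercalated-like cells were counted as tubular-like, and immune-like cells, under 20 per library, were not tested. Scrublet marked 14 cells (0.100%), too few to rely on, and no cell was removed as a doublet. Endothelial-like, mural-like and tubular-like cells were clustered again at resolution 0.5. The 25% limit for mixed subclusters was chosen after seeing the data.

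Sums of UMIs by library and by type, or subcluster, were fitted with edgeR 4.0.16 (filterByExpr, TMM, quasi-likelihood test) with library as a block, since all cell types of a library come from 1 preparation. P-values were adjusted by Benjamini-Hochberg over all genes tested in a comparison, at a threshold of 0.05, and intervals cover 95%. On simulated counts, with a fixed spread shared by all genes and no other difference between types, the script recovered known changes. How well changes are recovered in these data for genes with few UMIs was not tested. With 4 libraries, p-values measure only the spread between these libraries. Bulk values are TMM-scaled CPM, with a prior count of 2 in log2 ratios and at least 100 counts over both libraries; Poisson and Wilson intervals and floors (3 counts) cover counting error only. Alternatives included DESeq2 1.42.0.

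Gene positions are from GENCODE vM21 (GRCm38). RefSeq promoters matched 6 of the 7 genes; Nos3 had no entry, and Gucy1a3 had 2 starts, of which the one with a match is shown. All 7 genes are named; pathway genes were named by the smallest adjusted p among those moving 1 way in all 4 libraries (up to 6 per type) or by the largest bulk ratio (up to 4 per direction). The genes, lists and tests were chosen with earlier results of these data known. Of the 66 pathway genes, 7 were not analysed here in Drop-seq. Another pathway gene is included in the counts and is not reported here.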

Additional observations from a re-analysis of the deposited data

Results flagged for a closer look

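Of 27 sets of 4 libraries looked at, 2 held a library far from the other 3, and chance alone flags about 1 in 20 sets. Nos3 in tubular-like cells was at 2.84 CPM in replicate 1, below the 5.58 to 6.05 CPM of the other libraries. Pde5a in tubular-like cells was at 8.51 CPM in replicate 1, which held all 3 of its UMIs there, with 0 in the other libraries.

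The 56 immune-like cells, which entered no comparison, held 17 UMIs of Npr3, or 333.6 CPM pooled over the libraries, above the 58.9 CPM that 3 UMIs would give. The summed podocyte markers were at 7487 CPM in the same cells, and what part of the Npr3 value comes with podocyte RNA was not tested.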

How the results depend on the processing

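Over the 5 cell types the 6 genes tested gave 9 calls higher and 6 lower, where 10 to 29.1% of all genes were called higher in a type and 5.63 to 24.8% lower. With a mitochondrial limit of 10%, which left no parietal epithelial-like type, the calls higher were 5. Against all other cells summed the calls lower were 10. Every other alternative run stayed within 1.5 times of both counts. Npr3 had a parietal epithelial-like result under 12 alternatives and a podocyte-like one under 15, so the 10% limit was not the only setting without that type. Where it is missing, the mean of the other types is not the same. Without the replicate block the counts were 8 higher and 6 lower, and 5 in endothelial-like subclusters. The block changed 1 named call, Npr1 in endothelial-like cells (log2 0.56 without it). Leaving out 1 library gave 8 to 9 calls higher and 4 to 6 lower, and 28 to 32 calls over pairs of types, where the fit with all libraries gave 32. Pairs of parietal epithelial-like cells with another type were left out of that count for Gucy1a3 and Pde5a, which had no UMI there. In the pairs of types with a share given above, 7.05 to 39.1% of all genes differed, so that the count is a description. In endothelial-like subclusters the 5 calls were 3 to 5 when 1 library was left out, with the lowest without replicate 3, and 1 without the mixed subcluster. No paired analysis was possible because there was 1 library per group in bulk; its 4 genes past 2-fold lower were 4 under every scaling, prior and filter run.

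Thinning to 500 UMIs lowered the shares of cells with a UMI to 7.60% for Nos3, 9.78% for Gucy1a3, 14.2% for Gucy1b3, 5.98% for Pde5a, 7.37% for Npr1 and 26.1% for Npr3. By Spearman's rho 0, 1 and 0 of the 3 genes most like Nos3, Npr1 and Npr3 were kept. Signs turned for Npr1 against all other cells summed (-0.33 in parietal epithelial-like and -0.87 in endothelial-like cells), for Npr3 podocyte-like over parietal epithelial-like when 1 library was left out (-0.0104 without replicate 3, up to 0.210), for Npr3 endothelial-like over mural-like (-0.0623 with library sizes alone, -0.0439 with DESeq2, -0.0116 to 0.435 when 1 library was left out, with -0.00186 without replicate 2, and -0.70 without mixed subclusters) and for Nos3 in endothelial-like subcluster 2 (0.32 with no filter, and -0.377 to 0.133 when 1 library was left out, above 0 without replicates 1, 2 and 3). The cause was not tested. Npr3 in endothelial-like subcluster 3 lost its call without replicate 2 (adjusted p = 0.0903), without replicate 4 (0.277) and with DESeq2 (0.0962). The 296716 UMIs of mural-like cells and the 641 UMIs of the median endothelial-like cell limit the precision of Pde5a, Npr2 and the subclusters.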

Other observations

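Podocyte-like cells fell into 8 clusters made without the 7 genes. Npr1 was at 123 to 177 CPM in 6 of them and at 221 CPM in the cluster of 595 cells, with the mitochondrial tRNA synthetase Lars2 and the nuclear RNA Neat1 among its leading genes, where Npr3 was also highest at 928 CPM. The smallest cluster, of 18 cells, had 57.6 CPM of Npr1 from 1 UMI. Npr3 ranged from 522 CPM (1570 cells) upward over the clusters. These values pool the libraries and have no test. Of 10465 podocyte-like cells, 1609 had a UMI of Npr1, 4613 of Npr3 and 894 of both. In tubular-like cells Npr3 was at 239 ± 108 CPM in the mixed subcluster 1 and at 15.5 and 11.3 CPM in the larger subclusters 0 and 2 (means of 4 libraries).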
